A study of Rattus norvegicus with 18 samples.

Results

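The rat major histocompatibility complex, named RT1, and the genes that load peptides onto its products were followed in whole kidneys of rats in 3 groups of 6 libraries each. NC rats had no treatment. CKD rats were given 100 mg/kg/day of adenine, and SZ rats were given 100 mg/kg/day of adenine plus 300 mg/kg/day of SZ-A, so both treated groups share the adenine. Adenine given in excess forms crystals in the tubules and is a standard way to produce chronic kidney disease in rodents. What SZ-A is, and the strain and age of the rats, is not given here. The labels do not tell whether the 6 libraries of a group are 6 animals. The p-values therefore reflect only how far these libraries spread, and some of that spread may be technical. Every row of the gene table whose name starts with RT1- was taken, together with 10 genes of the same machinery (Cd74, Ciita, B2m, Tap1, Tap2, Tapbp, Psmb8, Psmb9, Psmb10 and Nlrc5), which gave 40 of 32116 rows. Of the 30 RT1 rows 21 were class I and 9 were class II by name. In the coordinates of the files, build mRatBN7.2, they lie on chromosome 20 between 978935 and 4756577.

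Class I molecules consist of a heavy chain and the small chain encoded by B2m, and they show peptides from inside the cell to CD8 T cells. The peptides are cut by the proteasome, in which the inducible subunits Psmb8, Psmb9 and Psmb10 can replace Psmb5, Psmb6 and Psmb7, and are pumped into the endoplasmic reticulum by Tap1 and Tap2. Class II molecules pair an alpha and a beta chain, carry the invariant chain Cd74 until peptides are loaded with the help of the DM chains, and show peptides from outside the cell to CD4 T cells. Ciita switches on class II genes and Nlrc5 switches on class I genes. In healthy kidney class II is known chiefly from resident macrophages and dendritic cells, while class I is present on nearly all cells.

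Classical class II promoters carry an X box and a Y box at a fixed spacing, the docking place of the RFX and NF-Y factors to which Ciita binds. Because 7 of 8 tested class II rows were called higher in CKD, as described below, the 250 bases before each annotated start were searched for this pair and for sites known from interferon-induced and NF-kB-driven genes. The sequences are those of RefSeq, build GRCr8, in which 33 of the 39 member symbols had a promoter. All motifs here and below were chosen after these sequences were seen. Their counts in the members are therefore a description and not a test. The pair, spelled here as GCAAC followed on the same strand by GATTGG with 20 to 40 bases from start to start, stood in 6 of 8 class II promoters, in 0 of 17 class I promoters and in 0 of the 8 promoters of the other members. It was found on either strand in 0.26% of all 33469 promoters. In the class II promoters the spacing ran from 29 to 32 bases. The following stretches show it in 5 of them, with both boxes in capitals.
RT1-Da, chr20:4515323-4515380, plus strand: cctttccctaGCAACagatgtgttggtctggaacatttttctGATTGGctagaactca
RT1-Db1, chr20:4560228-4560284, minus strand: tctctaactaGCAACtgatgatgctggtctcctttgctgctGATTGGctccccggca
RT1-Ba, chr20:4576971-4577028, plus strand: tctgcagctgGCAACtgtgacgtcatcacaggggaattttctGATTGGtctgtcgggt
RT1-DOb, chr20:4627592-4627646, minus strand: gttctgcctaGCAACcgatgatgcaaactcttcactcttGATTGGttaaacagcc
RT1-DOa, chr20:4758516-4758573, minus strand: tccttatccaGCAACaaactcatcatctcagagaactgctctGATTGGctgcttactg
The sixth was RT1-Db2, and RT1-Bb and RT1-DMa held GATTGG without the upstream box in these letters. On either strand, GATTGG stood in 8 of 17 class I promoters and in that of B2m, against 13.3% of all promoters. GCAAC stood in 6 of 17 class I promoters and in those of Cd74 and Tap2, against 29.5% of all promoters. Other spellings of the boxes were not searched, so the counts of 0 for the pair hold only for these letters. Each stretch is written 5′ to 3′ along the strand of its gene.

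The core of the interferon-stimulated response element, GAAA followed after any 2 bases by GAAA, was found on either strand in 3.41% of all promoters. It stood in 5 of the 8 promoters of members outside RT1 (B2m, Tap1, Tap2, Psmb10 and Tapbp), in 3 of 17 class I promoters and in 0 of 8 class II promoters, so it overlapped none of the pairs above. The matches are shown in capitals for the class I rows RT1-S3 and RT1-N3 and for 4 partners, and read TTTC, any 2 bases, TTTC where they lie on the opposite strand.
RT1-S3, chr20:2675406-2675435, plus strand: ctcctgctgcTTTCTCTTTCataaagacac
RT1-N3, chr20:2666272-2666301, plus strand: tgtgcttcagTTTCACTTTCcagtccctaa
B2m, chr3:129549170-129549199, plus strand: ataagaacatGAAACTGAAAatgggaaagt
Tap1, chr20:4668645-4668674, minus strand: cggtggctgcTTTCGGTTTCttcttcctct
Tap2, chr20:4652318-4652347, minus strand: gcagcgaagtGAAAGCGAAAgcccgggacc
Psmb10, chr19:50743293-50743375, minus strand: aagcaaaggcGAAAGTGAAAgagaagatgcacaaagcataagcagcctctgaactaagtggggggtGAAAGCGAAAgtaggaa
A run of GGGG, ATT and CCCC without a gap, a form of the NF-kB site known from class I enhancers, was rarer at 0.06% of all promoters and stood in the class I rows RT1-CE11 and RT1-CE16.
RT1-CE11, chr20:3363352-3363382, minus strand: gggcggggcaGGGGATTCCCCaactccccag
RT1-CE16, chr20:3265554-3265584, minus strand: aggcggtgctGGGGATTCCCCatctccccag
In RefSeq, build GRCr8, Tap1 and Psmb9 start 457 bases apart on opposite strands and point away from each other. These matches describe letters in a window of fixed length, and binding was not measured.

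Copies of class I genes limit what a single row can say. The upstream stretches of RT1-CE11 and RT1-CE15 shared 83.2% of bases in a global alignment, those of RT1-CE11 and RT1-CE16 73.2% and those of RT1-S2 and RT1-S3 69.2%, where the median over 136 pairs of class I promoters was 58.8%. Coding sequences were not compared here. In the files RT1-CE15 lies wholly within RT1-CE16 on the same strand (15392 shared bases), and RT1-CE11 lies within an unnamed row. RT1-S3, RT1-N2, RT1-N3, RT1-T24-4 and both rows named RT1-S2 lie wholly or almost wholly within another unnamed row. None of the rows analysed here is named RT1-A. The row named RT1-CE11 carries the description of locus A1 and that named RT1-CE1 the description of locus A2. Reads of near-identical copies may therefore have been split between rows, and how such reads were counted, and whether by strand, is not stated in the labels or file. The rows of Psmb9 and Tap1 in the files, unlike the RefSeq starts above, overlap by 856 bases at their 5′ ends on opposite strands. The row named Psmb10 carries the description of a chymotrypsin-like gene, Ctrl, which RefSeq places next to Psmb10, so its value may hold both.

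Depth was even, at 15354358 to 18532375 reads per library, recovered from the deposited FPKM (fragments per kilobase of gene per 1e6 of a library size set by the authors). In CKD 2, CKD 5 and SZ 3, and less so in CKD 1, longer genes were lower than in the other libraries, with a slope of log2 level on log2 length of -0.31 to -0.10 against 0.011 to 0.11 elsewhere. Among the CKD libraries, CKD 1 had the lowest RT1-Da, Cd74, Tap1 and Psmb8. The kidney label was checked with 5 proximal tubule markers, which summed to 2318 to 3103 FPKM in NC. The FPKM were scaled by the authors such that scaling each library to its plain total of reads would move the median log2 fold change of all genes by 0.29 in CKD against NC, by 0.18 in SZ against NC and by -0.11 in SZ against CKD. Of the 17 members given in full below, those that changed direction under any scaling tried were RT1-N2 and RT1-T24-4, neither of which was called. The mitochondrial share of reads was 14.7 to 24.1% in NC, 5.86 to 16.0% in CKD and 11.1 to 18.4% in SZ, and its part in the results was not tested. Genes that reached 1 FPKM in 6 or more libraries were tested with limma on log2(FPKM + 1), and called at a Benjamini-Hochberg adjusted p under 0.05. The filter left 28 of the 40 members, namely 11 class I rows, 8 class II rows and 9 others. Below it were RT1-M2, RT1-M5, RT1-M1-4, RT1-M1-2, RT1-M10-1, RT1-T18, both RT1-S2 rows, RT1-CE15, RT1-CE14, RT1-Db2 and Tapbp. RT1-M10-1 was at 0 in every library, where a count of 0 allows up to 3 reads. Tapbp, the tapasin gene of the class I loading complex, lies wholly within Rgl2 on the same strand and was at 0 in 16 of 18 libraries, so nothing is said of tapasin.

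In kidneys of adenine-treated rats genes of both arms of antigen presentation were higher than in untreated rats, with higher median fold changes for class II rows and for the members outside RT1 than for class I rows. In CKD against NC, 21 of the 28 tested members were called higher and 0 lower. The limma count of members lower at an unadjusted p under 0.05 was also 0, and limma's voom on the recovered reads gave 21 higher and 0 lower. Across all 13851 genes tested 50.3% were called, 24.4% higher and 26.0% lower. By group, 7 of 8 class II rows, 5 of 11 class I rows and 9 of 9 members outside RT1 were called higher. Among the members outside RT1, Cd74 and Ciita belong to the class II arm and the other tested ones to the class I arm. The median log2 fold change was 1.40 for class II rows, 0.62 for class I rows and 1.65 for the others, against -0.040 over all genes tested. Without CKD 2, CKD 5 and SZ 3, the libraries with low long genes, 5 class II rows, 4 class I rows and 9 others were called higher. The libraries of CKD lay wholly above those of NC for 3 class II rows, 3 class I rows and 7 of the others, where 14.2% of all genes did so.

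**Figure D1:**
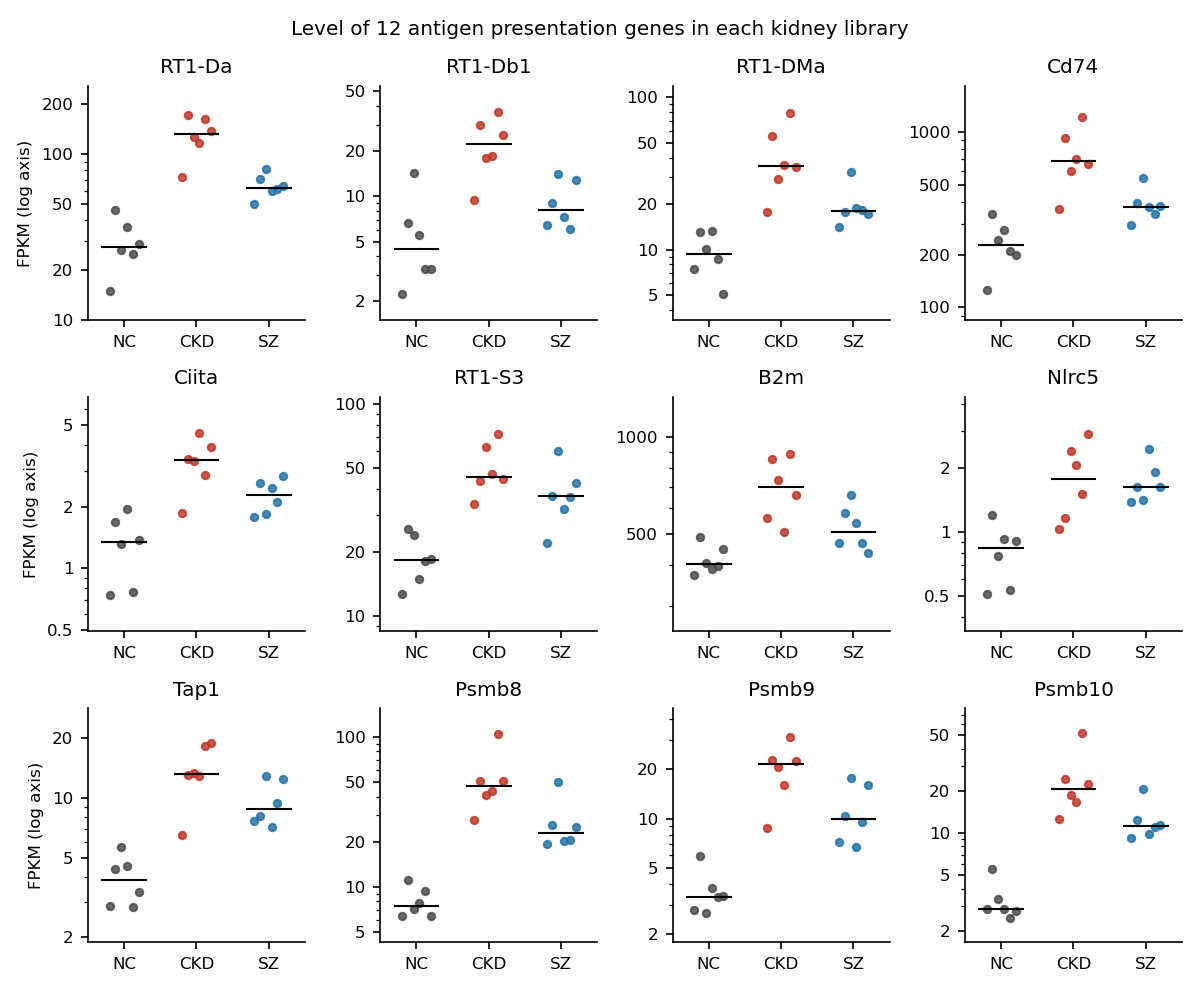
FPKM (log axis) of 12 members in each of the 6 libraries of NC, CKD and SZ; points are libraries and bars are medians. For RT1-Da the CKD libraries sit between 73.2 and 172 FPKM, above every NC library, and the SZ libraries sit between 50.3 and 81.5 FPKM.

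The class II chain with the highest level was RT1-Da, an alpha chain of the DR type (chromosome 20, 4512911 to 4518455). It ran from 14.9 to 45.8 FPKM in NC (median 27.6), from 73.2 to 172 in CKD (median 132) and from 50.3 to 81.5 in SZ (median 62.9). All CKD and all SZ libraries were above the highest NC library. The log2 fold change in CKD against NC was 2.14 (SE 0.23, adjusted p = 5.71e-07). Its beta chain RT1-Db1 (4548666 to 4558258) ran from 2.24 to 14.3 FPKM in NC (median 4.43), from 9.40 to 36.1 in CKD (median 22.2) and from 6.09 to 14.1 in SZ (median 8.13). NC 3 held the highest NC value, inside the CKD range, and the fold change was 1.89 (SE 0.34, adjusted p = 0.000188).

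The DM chains, which exchange peptides on class II molecules in the endosome, rose as well. RT1-DMa (4707028 to 4710432) ran from 5.15 to 13.2 FPKM in NC (median 9.35), from 17.7 to 78.8 in CKD (median 35.4) and from 14.2 to 32.2 in SZ (median 17.8). RT1-DMb (4693103 to 4700340) ran from 13.5 to 24.6 FPKM in NC (median 20.7), from 39.1 to 81.2 in CKD (median 53.0) and from 29.7 to 40.5 in SZ (median 35.6). For both chains no NC library reached the lowest CKD or the lowest SZ library. The log2 fold changes in CKD against NC were 1.92 for RT1-DMa (SE 0.29, adjusted p = 2.75e-05) and 1.47 for RT1-DMb (SE 0.16, adjusted p = 1.14e-06). The DO chains, which restrain DM, were lower in level. RT1-DOa rose by 1.06 (SE 0.25, adjusted p = 0.00188) and RT1-DOb by 0.38 (SE 0.16, adjusted p = 0.0479).

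The DQ-type pair varied more between libraries. RT1-Ba (4575134 to 4579744) ran from 2.31 to 48.5 FPKM in NC (median 5.32), from 11.2 to 28.5 in CKD (median 13.5) and from 9.58 to 25.9 in SZ (median 10.5). Its highest value of all 18 libraries belonged to NC 3, while the other NC libraries did not pass 6.33. In CKD against NC its log2 fold change of 1.00 (SE 0.46) was not called (adjusted p = 0.0739). Without NC 3 the value was 1.53 (adjusted p = 0.000182). RT1-Bb, its beta chain, rose by 1.33 (SE 0.51, adjusted p = 0.0356) and was also highest of NC in NC 3, at 8.16 FPKM. Its call was lost without any of NC 1, NC 4, NC 5, NC 6, CKD 2, CKD 4, CKD 5 or CKD 6 (1.18 to 1.34, adjusted p of 0.0526 to 0.0777), and that of RT1-DOb without any of NC 1, NC 3, NC 4, NC 5 or CKD 2 to CKD 6 (0.32 to 0.41, adjusted p of 0.0512 to 0.112). Class II rows called higher then numbered 5 to 7.

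The invariant chain and the switch of class II were higher too. Cd74 (chromosome 18, 54256778 to 54266003) ran from 127 to 339 FPKM in NC (median 227), from 366 to 1220 in CKD (median 682) and from 296 to 547 in SZ (median 376). Every CKD library lay above every NC library, and SZ overlapped both. Its log2 fold change in CKD against NC was 1.65 (SE 0.26, adjusted p = 4.37e-05). Ciita (chromosome 10, 5140178 to 5187440) ran from 0.736 to 1.95 FPKM in NC (median 1.35), from 1.87 to 4.60 in CKD (median 3.39) and from 1.79 to 2.83 in SZ (median 2.29). CKD and NC met at the lowest CKD library, and the fold change was 0.91 (SE 0.16, adjusted p = 0.000157).

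Class I rows ranged from differences near 0 to called increases. RT1-S3, a class Ib chain and the class I row with the highest level (2670709 to 2675411), ran from 12.7 to 25.9 FPKM in NC (median 18.4), from 33.7 to 72.0 in CKD (median 45.5) and from 22.2 to 59.9 in SZ (median 36.7). It was higher in all CKD libraries than in any NC library and rose by 1.35 (SE 0.22, adjusted p = 6.08e-05). RT1-N2 (2641202 to 2644900) ran from 9.49 to 26.3 FPKM in NC (median 21.9), from 8.87 to 28.3 in CKD (median 22.0) and from 3.07 to 25.7 in SZ (median 23.0). The groups overlapped throughout, and its difference of 0.094 (SE 0.39) was not called (adjusted p = 0.857). RT1-T24-4 (2684515 to 2692511) ran from 6.03 to 20.2 FPKM in NC (median 8.79), from 6.28 to 14.2 in CKD (median 9.64) and from 7.16 to 15.4 in SZ (median 9.93). Its difference was 0.032 (SE 0.25, adjusted p = 0.925), again with full overlap.

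Of the 8 tested class I rows at a mean under 10 FPKM, 4 were called higher in CKD. RT1-M3-1, a class Ib chain, rose by 1.04 (SE 0.14, adjusted p = 6.98e-06), RT1-CE2 by 1.36 (SE 0.23, adjusted p = 9.81e-05), RT1-CE11 by 0.75 (SE 0.15, adjusted p = 0.000409) and RT1-N3 by 0.61 (SE 0.21, adjusted p = 0.0225). RT1-N3 lost its call without NC 1 or CKD 5 (0.49 to 0.54, adjusted p of 0.0539 to 0.0604), while RT1-CE1 was called without NC 3 (0.72, adjusted p = 0.0142) and RT1-T24-1 without CKD 1 (0.78, adjusted p = 0.0224). The other 4, RT1-M6-2, RT1-T24-1, RT1-CE16 and RT1-CE1, had log2 fold changes between 0.047 and 0.86 and were not called. Summed over all rows of a class, class I went from 50.2 to 83.5 FPKM in NC (median 73.7) to 79.0 to 159 in CKD (median 119), and class II from 43.0 to 134 (median 76.1) to 157 to 395 (median 264). Since FPKM divides reads by each row's own length, these sums also depend on how reads were split among rows, and they leave out rows without an RT1 name. A further 15 rows on chromosome 20 are described as class I genes without an RT1 name. Of these 4 passed the filter and 2 were called higher in CKD, by 1.69 and 1.46. Both values exceed that of every tested RT1 class I row (1.36 at most). The other tested ones, at 0.92 and 0.47, were not called. The class I counts and medians given here leave these rows out.

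**Figure D2:**
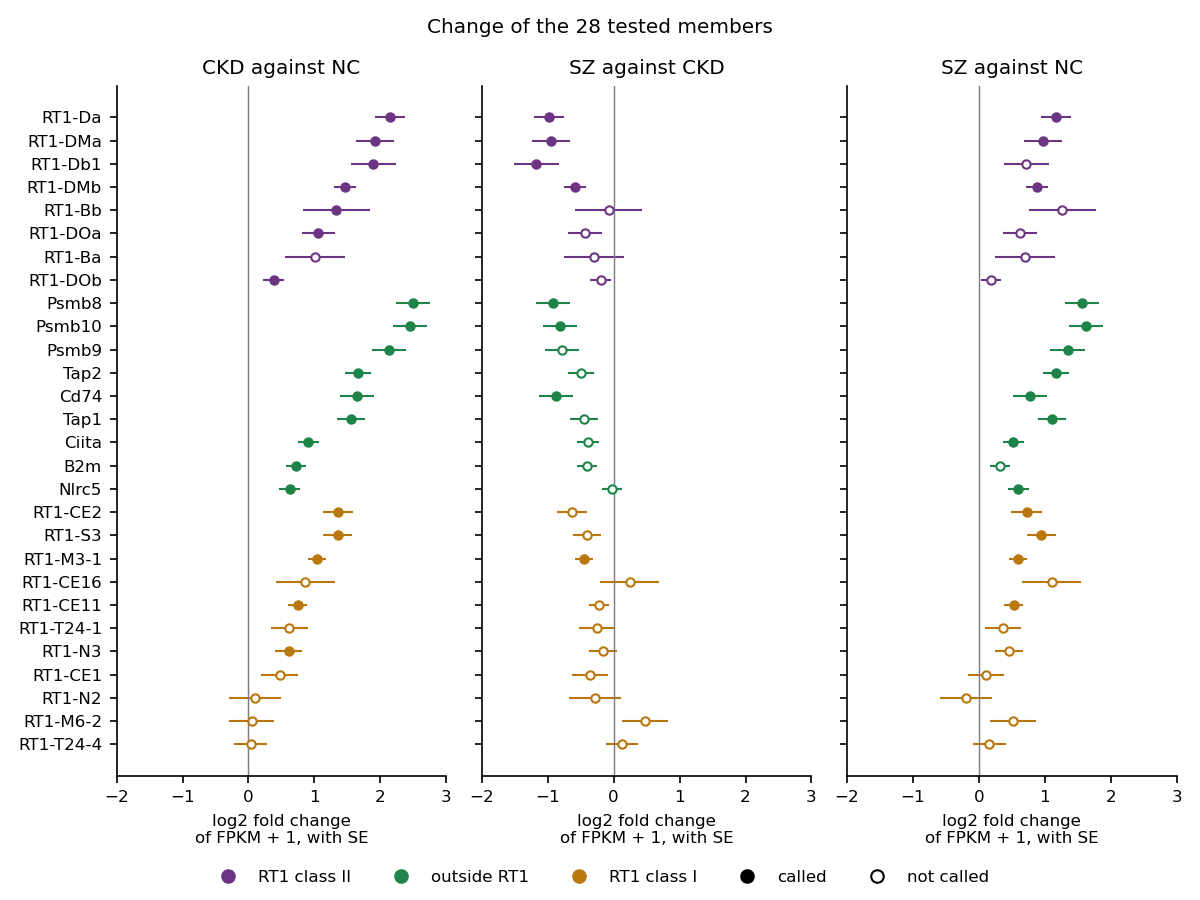
Log2 fold change of FPKM + 1 with its standard error for the 28 tested members in the 3 comparisons; filled points were called at an adjusted p under 0.05. In CKD against NC every point lies above 0, from 0.032 for RT1-T24-4 to 2.49 for Psmb8.

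B2m, the shared light chain of class I, had the highest mean FPKM of the members at 548 (chromosome 3, 109095729 to 109101766). It ran from 374 to 489 FPKM in NC (median 402), from 505 to 886 in CKD (median 700) and from 435 to 660 in SZ (median 506). CKD lay above NC without overlap, by 0.72 on the log2 scale (SE 0.15, adjusted p = 0.000743). Nlrc5, the class I switch (chromosome 19, 10477628 to 10562121), ran from 0.512 to 1.21 FPKM in NC (median 0.839), from 1.04 to 2.89 in CKD (median 1.79) and from 1.38 to 2.47 in SZ (median 1.64). Its ranges in NC and CKD overlapped, and it rose by 0.63 (SE 0.16, adjusted p = 0.0031).

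The 2 subunits of the peptide pump had higher log2 fold changes than B2m, a difference that was not tested. Tap1 (chromosome 20, 4656263 to 4666901) ran from 2.81 to 5.65 FPKM in NC (median 3.88), from 6.48 to 18.9 in CKD (median 13.2) and from 7.12 to 12.9 in SZ (median 8.78). Tap2 (4636357 to 4650407) ran from 4.91 to 8.34 FPKM in NC (median 6.85), from 12.7 to 37.9 in CKD (median 22.8) and from 12.9 to 20.8 in SZ (median 16.3). For both subunits all CKD and all SZ libraries exceeded all NC libraries. The log2 fold changes in CKD against NC were 1.55 for Tap1 (SE 0.21, adjusted p = 1.11e-05) and 1.67 for Tap2 (SE 0.20, adjusted p = 2.39e-06).

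On the log2(FPKM + 1) scale, the 3 inducible proteasome subunits had 3 of the 4 highest fold changes among the members. That scale understates the changes of low rows. The low class I row RT1-CE2, at 1.36 on it, had medians of 0.467 FPKM in NC and 3.20 in CKD. Psmb8 (4652159 to 4655283) ran from 6.38 to 11.1 FPKM in NC (median 7.44), from 27.7 to 104 in CKD (median 47.2) and from 19.3 to 50.3 in SZ (median 22.7), and rose by 2.49 (SE 0.26, adjusted p = 4.77e-07). Psmb9 (4666046 to 4672512) ran from 2.68 to 5.91 FPKM in NC (median 3.37), from 8.77 to 31.1 in CKD (median 21.4) and from 6.74 to 17.7 in SZ (median 9.92), and rose by 2.13 (SE 0.26, adjusted p = 3.19e-06). Psmb10 (chromosome 19, 33827229 to 33833626) ran from 2.47 to 5.48 FPKM in NC (median 2.87), from 12.5 to 52.2 in CKD (median 20.5) and from 9.23 to 20.7 in SZ (median 11.3), and rose by 2.45 (SE 0.26, adjusted p = 5.91e-07). All CKD and all SZ libraries lay above all NC libraries for each of the 3. The constitutive subunits they can replace had smaller differences that were not called, at 0.35 for Psmb5 (adjusted p = 0.0711), 0.39 for Psmb6 (adjusted p = 0.076) and 0.10 for Psmb7 (adjusted p = 0.608).

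Other genes of the pathway were taken from lists, whose counts are read against the 50.3% of all genes called in CKD against NC. For the first 2 lists the share called, 5 of 10 and 3 of 7, was near or below that background. Of 10 tested genes that supply class I with peptides, 4 were called higher in CKD against NC and 1 lower, with a median of 0.36. Erap1, which trims peptides in the endoplasmic reticulum, rose by 0.86 (adjusted p = 6.56e-06). Psme2 and Psme1, the subunits of the interferon-inducible proteasome activator, rose by 1.196 (adjusted p = 3.79e-05) and 0.94 (adjusted p = 0.000237). Psme3, the activator of the nuclear proteasome, fell by 1.47 (adjusted p = 3.98e-05). Of 7 class II processing genes 3 rose and 0 fell, with a median of 0.41. The lysosomal protease Ctss, which trims the invariant chain, rose by 2.55 (adjusted p = 1.01e-07), the thiol reductase Ifi30 by 1.10 (adjusted p = 1.78e-05) and the ubiquitin ligase Marchf1, which removes class II from the surface, by 0.98 (adjusted p = 0.000428). The 4 genes Ctsl, Ctsb, Lgmn and Marchf8 were not called.

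Of 11 tested regulators 8 rose and 0 fell in CKD against NC, with a median of 1.31. Irf8, a factor of myeloid cells, rose by 1.66 (adjusted p = 6.42e-08), the interferon gamma receptor chain Ifngr2 by 1.31 (adjusted p = 2.87e-07), the myeloid factor Spi1 by 2.38 (adjusted p = 5.03e-07) and Irf1, an interferon-induced activator of class I genes, by 2.10 (adjusted p = 7.93e-07). Of the subunits of RFX, which binds the X box, Rfx5 rose by 0.30 (adjusted p = 0.0304), while Rfxap (0.23, adjusted p = 0.213) and Rfxank (-0.14, adjusted p = 0.55) were not called; these 3 were singled out after their values were seen. Ifng itself did not pass the filter. Of 4 tested costimulatory genes 3 rose and 1 fell. Cd40 rose by 1.40 (adjusted p = 5.06e-06), Cd86 by 1.30 (adjusted p = 9.35e-06) and Cd274 by 0.48 (adjusted p = 0.0256), while the gene of the ligand of ICOS fell by 0.47 (adjusted p = 0.00396). Of 5 class I-like genes outside RT1, 3 rose and 1 fell: Cd1d1, which presents lipids, rose by 0.64 (adjusted p = 0.000169), Hfe, which senses iron, by 0.78 (adjusted p = 0.000875) and Procr by 0.73 (adjusted p = 0.00197), and Azgp1 fell by 1.22 (adjusted p = 0.000992). The median of the class I-like genes was 0.64 and that of the costimulatory genes 0.89.

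Markers of immune cells moved in the same direction, and their part in the results was not tested. The summed FPKM of 8 macrophage markers was 91.9 to 174 in NC, 819 to 1541 in CKD and 350 to 763 in SZ. For 7 dendritic cell markers it was 6.67 to 14.97, 40.5 to 110 and 18.7 to 37.1, and for the 5 T and NK cell markers found 2.52 to 6.51, 9.37 to 31.6 and 7.85 to 16.2. In CKD Lyz2 had a median of 987 FPKM, where that of the macrophage sum was 1127. Clec10a had 43.7, where that of the dendritic cell sum was 62.5, so these sums mainly follow single genes there. Clec10a rose by 3.335 in CKD against NC. The other tested dendritic cell markers ranged from 0.24 (Zbtb46, not called) to 1.41 (Itgax). All 8 macrophage markers, 4 of 5 tested dendritic cell markers, 4 of 5 T and NK cell markers and 2 of 2 tested B cell markers were called higher in CKD against NC, and 0 of these were lower. The dendritic cell genes Xcr1 and Ccr7 did not pass the filter. Across all genes tested 24.4% were called higher and 26.0% lower. Of 5 endothelial markers, which mark cells that can carry class II, 2 were called lower and 0 higher. That count is too small to tell from the share over all genes. Endothelial sums were 116 to 164 in NC and 97.6 to 140 in CKD. Of 5 proximal tubule markers 4 fell, with sums of 490 to 1271 in CKD. In whole tissue more cells of a type and more RNA per cell cannot be told apart.

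**Figure D3:**
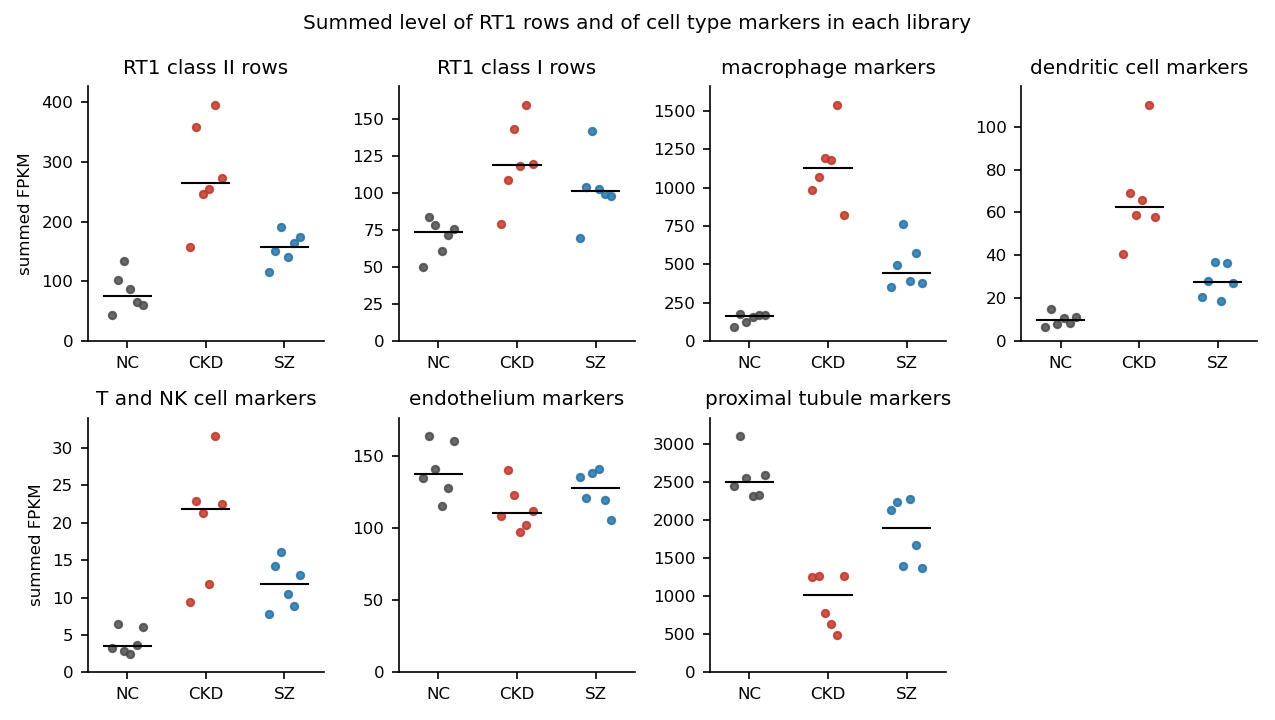
Summed FPKM of all RT1 class II rows, all RT1 class I rows and 5 marker lists in each library; bars are medians. Class II sums have medians of 76.1 in NC, 264 in CKD and 157 in SZ, and macrophage marker sums do not overlap between NC and CKD.

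SZ against CKD asks whether the level under adenine differed when SZ-A was given as well. RT1-Da, RT1-Db1, both DM chains, Cd74, Psmb8, Psmb10 and RT1-M3-1 were lower in SZ. In this comparison 8 of 28 members were called lower and 0 higher by limma, where 11.0% of all genes were called, 4.16% higher and 6.82% lower. The count of members higher at an unadjusted p under 0.05 was 0, and voom on the recovered reads gave 8 lower and 0 higher. The calls were 4 of 8 class II rows, 1 of 11 class I rows and 3 of 9 others. Medians were -0.51 for class II rows, -0.25 for class I rows and -0.50 for the others, against 0.0055 over all genes. For 0 members did the SZ libraries lie wholly below the CKD libraries, where 1.63% of all genes did so.

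RT1-Da was lower in SZ by -0.98 on the log2 scale (SE 0.23, adjusted p = 0.0135), and RT1-Db1 by -1.17 (SE 0.34, adjusted p = 0.036). RT1-DMa differed by -0.95 (SE 0.29, adjusted p = 0.0412) and RT1-DMb by -0.59 (SE 0.16, adjusted p = 0.0294). For each of the 4 the SZ range reached into the CKD range, whose lowest library was CKD 1. Cd74 differed by -0.87 (SE 0.26, adjusted p = 0.037). RT1-DOa (-0.44, adjusted p = 0.26), RT1-DOb (-0.20, adjusted p = 0.406), RT1-Ba (-0.30, adjusted p = 0.684), RT1-Bb (-0.072, adjusted p = 0.94) and Ciita (-0.39, adjusted p = 0.122) were not called.

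On the class I side Psmb8 was lower in SZ by -0.92 (SE 0.26, adjusted p = 0.0301), Psmb10 by -0.82 (SE 0.26, adjusted p = 0.0479) and the class Ib row RT1-M3-1 by -0.45 (SE 0.14, adjusted p = 0.0424). Psmb9 (-0.79, SE 0.26, adjusted p = 0.057), B2m (-0.40, SE 0.15, adjusted p = 0.0936), Tap2 (-0.50, SE 0.20, adjusted p = 0.106) and Tap1 (-0.45, SE 0.21, adjusted p = 0.171) were below CKD but not called. RT1-S3 differed by -0.41 (SE 0.22, adjusted p = 0.227). Nlrc5 was at -0.025 (SE 0.16, adjusted p = 0.933), with SZ and CKD medians of 1.64 and 1.79 FPKM. The only positive differences among the members were those of RT1-M6-2 (0.47), RT1-CE16 (0.24) and RT1-T24-4 (0.13), of which none was called.

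Most of these calls lay close to the threshold. RT1-Da stayed under 0.05 in all 25 alternatives tried, at adjusted p-values of 0.00187 to 0.0424. Cd74 lost its call without any of CKD 2, CKD 3, CKD 4, CKD 5, SZ 1, SZ 2, SZ 4, SZ 5 or SZ 6 (-0.91 to -0.71, adjusted p of 0.0514 to 0.0949), and RT1-DMa without any of CKD 2, CKD 4, CKD 5, CKD 6, SZ 1, SZ 2, SZ 4, SZ 5 or SZ 6 (-0.97 to -0.74, 0.0519 to 0.103). RT1-Db1 lost it without any of CKD 2 to CKD 6, SZ 1, SZ 2, SZ 4 or SZ 5 (-1.22 to -1.02, 0.0523 to 0.0948), and RT1-DMb without any of CKD 4, CKD 5, SZ 1, SZ 2, SZ 4 or SZ 5 (-0.59 to -0.47, 0.0511 to 0.0732). Psmb8 lost it without any of CKD 5, SZ 1, SZ 2, SZ 4, SZ 5 or SZ 6 (-0.93 to -0.70, 0.051 to 0.0774), and Psmb10 without any library but CKD 1 or SZ 3 (-0.89 to -0.58, 0.0511 to 0.11). RT1-M3-1 lost it without any of CKD 3 to CKD 6, SZ 1, SZ 2, SZ 4, SZ 5 or SZ 6 (-0.47 to -0.37, 0.0573 to 0.108). Conversely, without CKD 1 the calls were gained by Tap1 (-0.63, adjusted p = 0.0185), Tap2 (-0.67, adjusted p = 0.0106), Psmb9 (-0.99, adjusted p = 0.00645), Ciita (-0.50, adjusted p = 0.0258) and B2m (-0.46, adjusted p = 0.0447). Psmb9 was also called without SZ 3 or SZ 6, and B2m without CKD 4 or SZ 3. Without the 3 libraries in which long genes were low, CKD 2, CKD 5 and SZ 3, 1 class II row, 1 class I row and 2 others were called lower.

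The pathway lists in SZ against CKD gave 0 of 10 peptide supply genes, 2 of 7 class II processing genes, 6 of 11 regulators, 2 of 4 costimulatory genes and 1 of 5 class I-like genes lower, and 0 higher in any of them, where 11.0% of all genes were called. Ctss was at -1.26 (adjusted p = 0.00429), Ifi30 at -0.55 (adjusted p = 0.0325), Irf8 at -0.64 (adjusted p = 0.0107), Ifngr2 at -0.61 (adjusted p = 0.00967) and Cd40 at -0.80 (adjusted p = 0.0118). The SZ libraries lay wholly below the CKD libraries for Irf8 and Cd40. Irf1 was at -0.49 and was not called (adjusted p = 0.161). Of the marker lists, 6 of 8 macrophage, 2 of 5 dendritic cell, 2 of 5 T and NK cell and 1 of 2 B cell genes were lower and 4 of 5 proximal tubule genes were higher in SZ. Their part in the difference of the members was not tested.

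Against untreated kidneys, SZ kidneys had higher levels of both Tap subunits, the inducible proteasome subunits, the DM chains and RT1-Da. In SZ against NC 15 of 28 members were called higher and 0 lower by limma (0 lower also at an unadjusted p under 0.05, and 14 higher and 0 lower with voom), where 21.1% of all genes were called, 12.5% higher and 8.61% lower. By group these were 3 of 8 class II rows, 4 of 11 class I rows and 8 of 9 others, with medians of 0.80, 0.52 and 1.10 against -0.035 over all genes. Without CKD 2, CKD 5 and SZ 3 the counts were 3, 4 and 8. SZ lay wholly above NC for 3 class II rows, 1 class I row and 6 others, where 8.86% of all genes did so (5.70% lay wholly below). This comparison shares its libraries with both others, so the 3 are not independent.

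On the log2(FPKM + 1) scale, which understates low rows, the inducible proteasome subunits had the 3 highest fold changes of the members in SZ against NC. Psmb10 was higher by 1.63 (SE 0.26, adjusted p = 0.000223), Psmb8 by 1.57 (SE 0.26, adjusted p = 0.0003), Psmb9 by 1.35 (SE 0.26, adjusted p = 0.00125), Tap2 by 1.17 (SE 0.20, adjusted p = 0.000415) and Tap1 by 1.10 (SE 0.21, adjusted p = 0.00122). RT1-Da was higher by 1.17 (SE 0.23, adjusted p = 0.00123), RT1-DMa by 0.97 (SE 0.29, adjusted p = 0.0221), RT1-DMb by 0.88 (SE 0.16, adjusted p = 0.000909) and RT1-S3 by 0.95 (SE 0.22, adjusted p = 0.00474). Nlrc5 was higher by 0.60 (SE 0.16, adjusted p = 0.0118), with all SZ libraries above all NC libraries, and Ciita by 0.52 (SE 0.16, adjusted p = 0.0278). Cd74 was higher by 0.77 (SE 0.26, adjusted p = 0.0388). RT1-Db1 (0.72, adjusted p = 0.147), RT1-Ba (0.70, adjusted p = 0.29) and B2m (0.32, adjusted p = 0.143) were not called.

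Several of these calls also lay close to the threshold. Cd74 lost its call without any of NC 1, NC 3, NC 5, NC 6, SZ 2, SZ 3, SZ 4, SZ 5 or SZ 6 (0.61 to 0.81, adjusted p of 0.0544 to 0.0997). Ciita lost it without NC 1, NC 5, SZ 2 or SZ 6 (0.45 to 0.49, 0.0568 to 0.0716), and RT1-DMa without NC 6 or SZ 3 (0.83, 0.0511 to 0.0543). Without NC 3, RT1-Db1 (0.99, adjusted p = 0.0331) and RT1-Ba (1.23, adjusted p = 0.00405) were called, and the count of class II rows went from 3 to 6. Of the class I calls, that of RT1-CE2 (0.72, adjusted p = 0.0317) was lost in 7 of 12 omissions of 1 library (0.59 to 0.72, 0.0511 to 0.083). RT1-CE16 was called without SZ 4 (1.32, adjusted p = 0.0468). The other members named in this comparison with their tests kept their side of the threshold under every omission of 1 library.

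To set class II against class I within a library, ratios of single genes were compared, which do not move with the scaling of the library apart from the pseudocount. There were 5 ratios in 3 comparisons, tested 2-sided by exact permutation of the group labels (924 arrangements), with adjustment over the 15 tests; 0.00216 is the smallest p they can give. The log2 ratio of Cd74 to B2m was -0.90 ± 0.41 (SD, n = 6) in NC, 0.024 ± 0.42 in CKD and -0.45 ± 0.18 in SZ. It was higher in CKD than in NC by 0.93 (exact adjusted p = 0.0139), lower in SZ than in CKD by -0.47 (exact adjusted p = 0.0487) and higher in SZ than in NC by 0.45 (exact adjusted p = 0.0422). The NC, CKD and SZ libraries overlapped in pairs, with NC at -1.56 to -0.49, CKD at -0.61 to 0.48 and SZ at -0.66 to -0.20.

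The ratio of the switches, Ciita to Nlrc5, was 0.33 ± 0.15 (SD, n = 6) in NC, 0.62 ± 0.28 in CKD and 0.26 ± 0.21 in SZ. CKD exceeded NC by 0.28, which was not called (exact adjusted p = 0.0649), and SZ was below CKD by -0.36 (exact adjusted p = 0.0443). SZ and NC differed by -0.077 (exact adjusted p = 0.476). Ciita did not pass 4.60 FPKM and Nlrc5 did not pass 2.89 in any library. The added 1 therefore weighs on this ratio, which does move with scaling. Under TPM scaling CKD exceeded NC by 0.33, which was called (exact adjusted p = 0.0361).

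Each inducible proteasome subunit gained on the constitutive one it can replace. The log2 ratio of Psmb8 to Psmb5 was -3.15 ± 0.26 (SD, n = 6) in NC, -1.01 ± 0.41 in CKD and -1.57 ± 0.32 in SZ, that of Psmb9 to Psmb6 was -3.96 ± 0.41, -2.22 ± 0.49 and -2.64 ± 0.43, and that of Psmb10 to Psmb7 was -4.19 ± 0.34, -1.84 ± 0.51 and -2.54 ± 0.12. For all 3 the NC libraries lay below every CKD and every SZ library. The gains in CKD against NC were 2.14, 1.75 and 2.35, each with an exact adjusted p of 0.00541. In SZ against CKD the ratio of Psmb8 was lower by -0.56 (exact adjusted p = 0.0422) and that of Psmb10 by -0.70 (exact adjusted p = 0.0284), while that of Psmb9 was at -0.42 and was not called (exact adjusted p = 0.139).

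**Figure D4:**
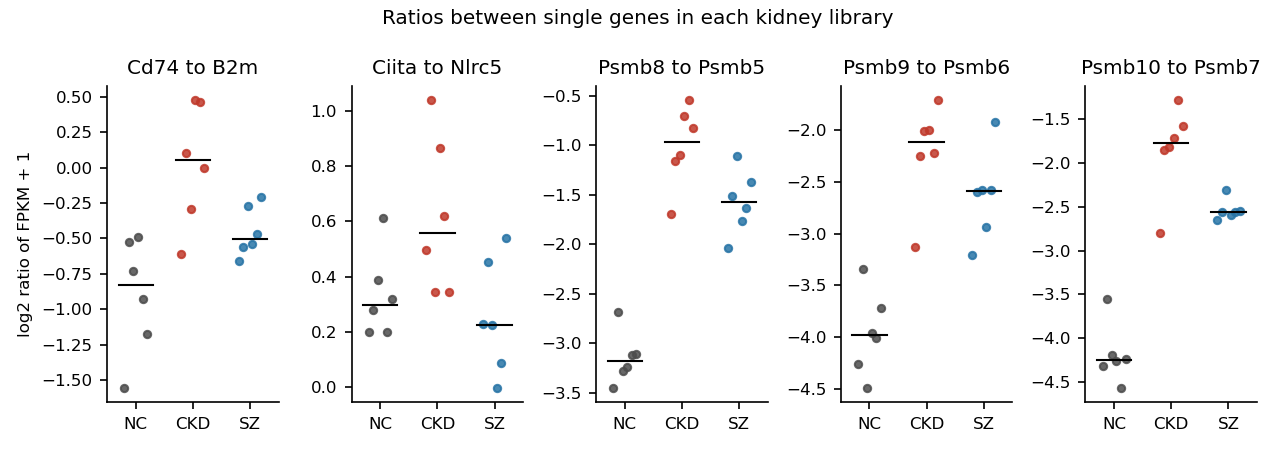
Log2 ratio of FPKM + 1 between pairs of single genes in each library; points are libraries and bars are medians. For the 3 proteasome pairs the 6 NC libraries lie below all CKD and SZ libraries, while for Ciita to Nlrc5 the groups overlap.

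Several ratio calls in SZ against CKD lay close to the threshold. Cd74 to B2m lost its call without any library but CKD 1 or CKD 3 (-0.52 to -0.38, exact adjusted p of 0.0531 to 0.0893). Psmb8 to Psmb5 lost it without any library but CKD 1, CKD 3 or SZ 3 (-0.60 to -0.47, 0.0519 to 0.0767), and Ciita to Nlrc5 without any of CKD 2, CKD 4, CKD 5 or SZ 1 to SZ 5 (-0.40 to -0.28, 0.0531 to 0.0824). Psmb9 to Psmb6 was called without CKD 1 (-0.60, exact adjusted p = 0.0352). In SZ against NC, Cd74 to B2m lost its call without NC 1, NC 5, NC 6 or any of the 6 SZ libraries (0.32 to 0.49, 0.0505 to 0.0747). In CKD against NC, Ciita to Nlrc5 was called without NC 4, CKD 3 or CKD 6 (0.0357 to 0.0384).

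Some RT1 rows differed widely between libraries of 1 group. In SZ 6, RT1-N2 was at 3.07 FPKM where the other SZ libraries were at 15.3 or more, RT1-CE2 was at 0.16 where their lowest was 1.37, RT1-CE16 was at 12.3 where their highest was 2.74, and RT1-Bb was at 27.3. In NC 3, RT1-Ba was at 48.5, RT1-Bb at 8.16, RT1-T24-4 at 20.2 and RT1-CE1 at 7.995, each the highest of NC. Cd74 was within the range of the other libraries of its group in both, at 378 FPKM in SZ 6 and 244 in NC 3. RT1-Ba was also high in CKD 2, at 28.5, and in SZ 5, at 25.9. The rows named here differ in which libraries are high, and the SEs of the fold changes of RT1-Ba, RT1-Bb, RT1-N2 and RT1-CE16 were 0.46, 0.51, 0.39 and 0.45, while that of RT1-CE2 was 0.23. The cause was not tested.

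**Figure D5:**
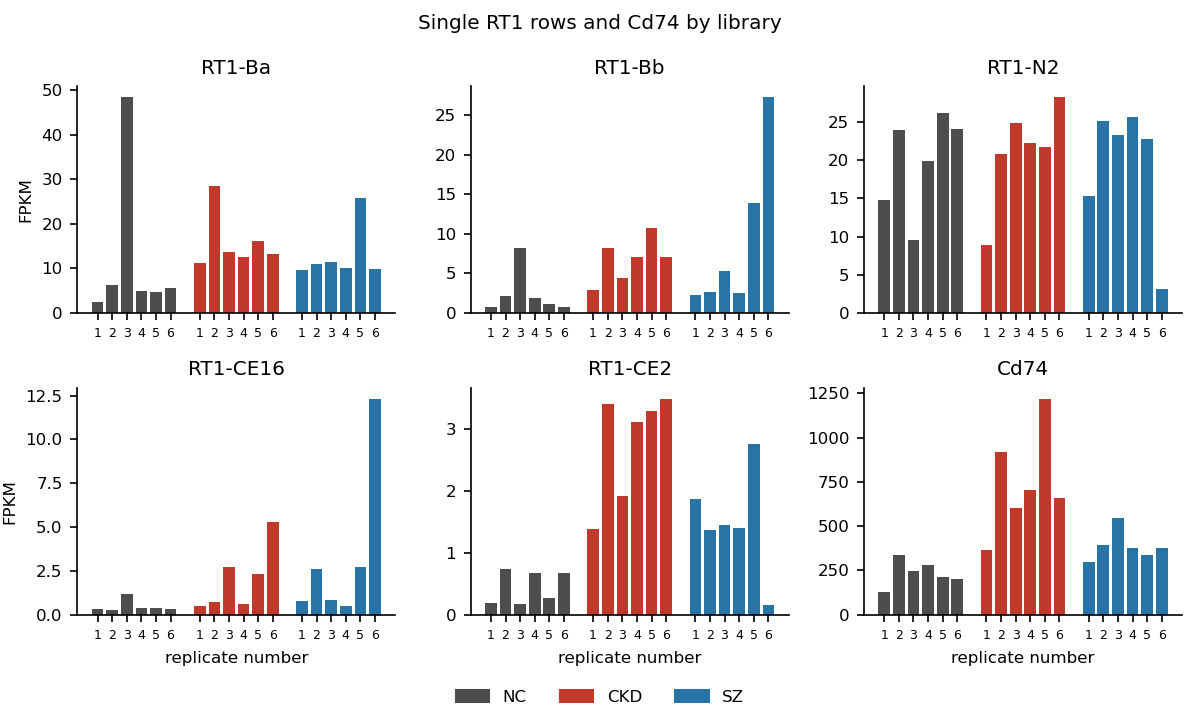
FPKM of 5 RT1 rows and Cd74 in each library by replicate number and group. RT1-Ba stands at 48.5 in NC 3, RT1-CE16 at 12.3 and RT1-N2 at 3.07 in SZ 6, while Cd74 in those libraries is 244 and 378.

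Rows below the filter are given for completeness. RT1-M2, a class Ib chain, ran from 0 to 0.304 FPKM in NC (median 0.063), from 0.12 to 4.13 in CKD (median 1.22) and from 0 to 1.24 in SZ (median 0.303), with CKD 4 highest. RT1-Db2, a second beta chain of the DR type, did not pass 0.803 FPKM in any library, and RT1-CE14 did not pass 1.23. RT1-S2 at 2649964 had medians of 0.426 in NC, 0.147 in CKD and 0.208 in SZ. The remaining rows, RT1-M5, RT1-M1-4, RT1-M1-2, RT1-T18, RT1-CE15 and the second RT1-S2, stayed under 0.24 FPKM in every library.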

How the data were processed

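Kidney RNA was extracted with Trizol and made into libraries with an Illumina TruSeq RNA kit, per the labels' protocols. HISAT2 2.0.5 and build mRatBN7.2 are named in the submitters' processing notes. No source used here names the program that counted reads, whether it used strand, or the gene annotation's release. The authors deposited 1 table of FPKM per gene and library with gene length in bases as another deposited column. Multiplying FPKM by gene length gave values in whole steps (100% of values within 0.01), so reads per library could be recovered. The authors' FPKM use a library size that is scaled between libraries.

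A gene was kept if 6 or more of the 18 libraries had FPKM of 1 or higher (13851 of 32116, with 18265 set aside). limma 3.58.1 in R 4.3.3 was fitted to log2(FPKM + 1) with an intensity trend and 3 group means. P-values are 2-sided and Benjamini-Hochberg adjusted over all genes tested in each comparison. The log2(FPKM + 1) scale, used for all fold changes, understates those of low genes. Count tests on the FPKM table were not used as the main test, because the values are not counts. Ratios were tested by exact permutation in Python 3.11.15 with numpy 2.4.6. The fit was tested on reads simulated from the NC means and the NC and CKD library sizes (13851 genes), with 1 fixed spread setting for every gene. It called 9 of 50 genes changed 1.5-fold, 41 of 50 changed 2-fold and 50 of 50 changed 4-fold. Few genes were changed in the simulation, whereas 50.3% were called in CKD against NC. These rates may therefore not hold for the libraries themselves.

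Members outside RT1 and RT1 rows with a mean of at least 10 FPKM are given in full, other RT1 rows by counts and, where named, after their values were seen. From each pathway list the called genes with the smallest adjusted p in CKD against NC are named, at most 4. The members and lists were chosen with earlier results of these data known, and the promoter motifs after the sequences were seen. Alternatives covered pseudocount, filter, scaling, gene length, variance model, the groups fitted, a replicate block and each library left out in turn. The summed level of the B cell markers is not reported here. 0 pairs of libraries held identical values.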

Additional observations from a re-analysis of the deposited data

Results flagged for a closer look

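Among 51 sets of 6 libraries (each fully described member in each group), 9 held a library whose gap to the nearest other, on the log2(FPKM + 1) scale, was above Dixon's 95% critical value as a share of the range of its group. Chance flags about 1 in 20 such sets. The causes were not tested.

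For RT1-N2, a class I row, CKD 1 stood at 8.87 FPKM where the other CKD libraries ran from 20.8 to 28.3, and SZ 6 stood at 3.07 where the others ran from 15.3 to 25.7. For RT1-Ba, a class II alpha chain, NC 3 stood at 48.5 FPKM against 2.31 to 6.33, and SZ 5 at 25.9 against 9.58 to 11.4. SZ 3, a library with low long genes, was the highest of its group for RT1-DMa at 32.2 FPKM (others 14.2 to 18.8), Psmb8 at 50.3 (others 19.3 to 25.9) and Psmb10 at 20.7 (others 9.23 to 12.4). Tap1 in CKD 1 was at 6.48 FPKM where the other CKD libraries ran from 13.0 to 18.9. Psmb10 in NC 2 was at 5.48 FPKM where the other NC libraries ran from 2.47 to 3.36.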

How the results depend on the processing

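Among 1269 recomputations of the fully described members, 1143 kept direction and side of the threshold, 80 lost the call, 27 gained it and 19 changed sign. The sign changes were all uncalled and concerned RT1-N2, RT1-T24-4 and Nlrc5. With 1 library left out, RT1-N2 ran from -0.088 to 0.31 in CKD against NC, -0.50 to 0.13 in SZ against CKD and -0.37 to 0.23 in SZ against NC, RT1-T24-4 from -0.080 to 0.24 in CKD against NC and Nlrc5 from -0.11 to 0.073 in SZ against CKD. For RT1-N2, CKD against NC was -0.088 without NC 3 and -0.0018 without CKD 6, SZ against CKD was 0.13 without SZ 6, and SZ against NC was 0.093 under TPM scaling, 0.013 under plain library totals and 0.23 without SZ 6. For RT1-T24-4, CKD against NC was -0.027 with gene length correction and -0.080 to -0.011 without NC 1, NC 4, CKD 1, CKD 3 or CKD 5, and SZ against CKD was -0.0080 under TPM scaling and -0.036 without CKD 2, CKD 5 and SZ 3. Nlrc5 in SZ against CKD was 0.036, 0.0048, 0.073, 0.014 and 0.0085 without CKD 3, CKD 4, CKD 6, SZ 1 and SZ 3. The cause was not tested, beyond what fewer libraries or genes imply.

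A mean FPKM of at least 5 lowered the total called in CKD against NC to 4447 (class I higher 2) and in SZ against NC to 1627 (class I higher 1), with fewer genes tested. In SZ against CKD, fitting only the groups compared gave 554 calls in all. Class I rows called lower there were 0 with pseudocount 0.1, no filter, a mean of at least 5, scaling without the 20 most abundant genes or only the groups compared, and 2 with TPM or plain totals. Class II rows called lower were 2 with no filter and 1 without CKD 2, CKD 5 and SZ 3. Members outside RT1 called lower were 0 with no filter or only the groups compared, and 5 with TPM or plain totals. Class II rows higher in SZ against NC were 6 under TPM. With 1 library left out, SZ against CKD gave 533 (without SZ 4) to 3058 (without SZ 3) calls, with 0 to 3 class I rows, 1 to 4 class II rows and 0 to 8 other members lower, and SZ against NC gave 2 to 6 class II rows higher.

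Scaling moved the split of calls. CKD against NC had 6591 higher and 1281 lower under TPM, 5980 and 1729 under plain totals, and 4161 and 2523 without the 20 most abundant genes, against 3378 and 3595 as deposited. SZ against CKD had 289 and 1702 under TPM and 382 and 1752 under plain totals, against 576 and 945. SZ against NC had 3432 and 266, 2861 and 381, 2266 and 541, and 2123 and 1917 with only the groups compared, against 1726 and 1193. TPM moved the median of all genes by 0.38, -0.13 and 0.26 in CKD against NC, SZ against CKD and SZ against NC.

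The labels number the libraries without tying numbers to a shared animal or day, and 1, 0 and 1 of 6 libraries correlated best with their own number (r of -0.36 to 0.23). With the replicate block the calls were 6636, 1195 and 2584. The sign-flip test of the ratios with the replicate block gave 0.93, -0.47 and 0.45 for Cd74 to B2m (adjusted p of 0.0521, 0.0852 and 0.134), -0.36 for Ciita to Nlrc5 in SZ against CKD, 2.14, -0.56 and 1.58 for Psmb8 to Psmb5, 1.75 and 1.33 for Psmb9 to Psmb6 and 2.35, -0.70 and 1.65 for Psmb10 to Psmb7, none under 0.05. With 6 pairs the smallest p of that test is 0.0312, which adjustment over 15 tests left at 0.0521 at best, so it could not call these ratios here. Without CKD 2, CKD 5 and SZ 3, Cd74 to B2m was 0.80, -0.38 and 0.42, Ciita to Nlrc5 -0.25, Psmb8 to Psmb5 -0.58 and Psmb10 to Psmb7 -0.60, no longer called. Under TPM, Ciita to Nlrc5 was called in CKD against NC (0.33). With 1 library left out, Cd74 to B2m ran from -0.60 to -0.38 in SZ against CKD and 0.32 to 0.53 in SZ against NC, Ciita to Nlrc5 from 0.20 to 0.34 in CKD against NC and -0.42 to -0.28 in SZ against CKD, Psmb8 to Psmb5 from -0.70 to -0.47 and Psmb9 to Psmb6 from -0.60 to -0.30.

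The edgeR and DESeq2 fits were not run, since the deposited unit is FPKM. limma's voom on recovered reads, chosen after seeing the data, stood in for them. Depth limits rows near 1 FPKM, and 12 members were not tested.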
